A study of Sus scrofa with 6 samples.

Results

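RAB GTPases and the machinery of exocytosis were examined in porcine granulosa cells (GCs), the somatic cells that surround the oocyte in the follicle. Genes were taken by name, and a gene was a member when its symbol began with RAB, STX, SNAP or SYT followed by a digit, or with EXOC, VAMP, STXBP or SYTL. This rule found 88 of the 17950 genes in the table, and it used no measured value. Their level was given in FPKM, the number of fragments scaled to transcript length and to the mapped fragments of the libraries. Levels can thus be compared between genes, while a comparison between groups also depends on how the groups are scaled.

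The GCs came from ovaries of Landrace pigs, pre-pubertal gilts from a slaughterhouse according to the methods, and were kept in medium with serum. The pLVX-*RBP4* group received a lentivirus carrying porcine *RBP4* together with the green fluorescent protein ZsGreen for 72 h, and the CTRL group received the same vector without *RBP4* for 72 h, so both groups carried the virus and ZsGreen. Each group had 3 libraries, but the deposited table holds 1 value per gene and group, made by the authors from the 3 libraries. The spread between libraries is therefore unknown, no test between the groups was possible, and each difference below is a description of 2 group values without an error. The number of reads behind a value cannot be read from FPKM, and low values are the least certain. *RBP4* itself had 1.10 FPKM in CTRL cells and 92.3 FPKM in pLVX-*RBP4* cells, which follows the labels.

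A RAB GTPase is a molecular switch that sits on one kind of membrane when it carries GTP and there recruits tethers and motors. In exocytosis, a vesicle marked by a RAB is tethered at the plasma membrane, largely by the exocyst, a complex of EXOC subunits. SNARE proteins of the vesicle (VAMP) and of the target membrane (syntaxins, STX, and SNAP proteins) then zip together, guided by STXBP proteins and, where release waits for calcium, by synaptotagmins (SYT). Granulosa cells send out inhibins, activins and matrix proteins by this route.

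Differences are given as log2(FPKM + 1) in the pLVX-*RBP4* group minus the same in the CTRL group, unless a plain ratio is named, and this scale understates the difference of weakly expressed genes. A mean of at least 1 FPKM over both groups was reached by 68 of the 88 members and by 12382 of all genes. Of these 68 members, 32 had a higher and 36 a lower value with *RBP4*, against 50.2% higher and 49.8% lower among all 12382 genes. The median difference was -0.0091 for the members and 0.0014 for all genes. Rescaling both groups to a common sum turned the split of the members to 45 higher and 23 lower, and that of all genes to 64.9% higher, so the direction of small differences depends on the scaling. The sign of 51 of the 68 members was the same as deposited and under each of 3 scalings.

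Few members passed the limits set on size. Downward, their share was below or above that of all genes depending on the limit. A limit of 0.32 on the log2(FPKM + 1) scale was used, which stands for a value of FPKM + 1 that is 25% higher or 20% lower. Past this limit, 0 of the 68 members were higher, against 7.11% of all genes, and 2 (2.94%) were lower, against 5.31% of all genes. The 2 lower members were *RAB3B* and *STX1A*. At a limit of 1.5-fold on the same FPKM + 1 scale, 0 members were higher, against 1.49% of all genes, and 0 lower, against 1.28%. By the plain ratio of FPKM, which has no added 1, *RAB3B* and *STX1A* did pass 1.5-fold, so that 2 members were lower and 0 higher, against 2.1% and 2.34% of the genes above 0 in both groups. In total, 97.1% of the members lay within the limit of 0.32, and 87.6% of all genes did. The middle of the range also looked alike, from -0.099 to 0.11 for the members and from -0.12 to 0.14 for all genes, as 25th and 75th percentiles.

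**Figure D1:**
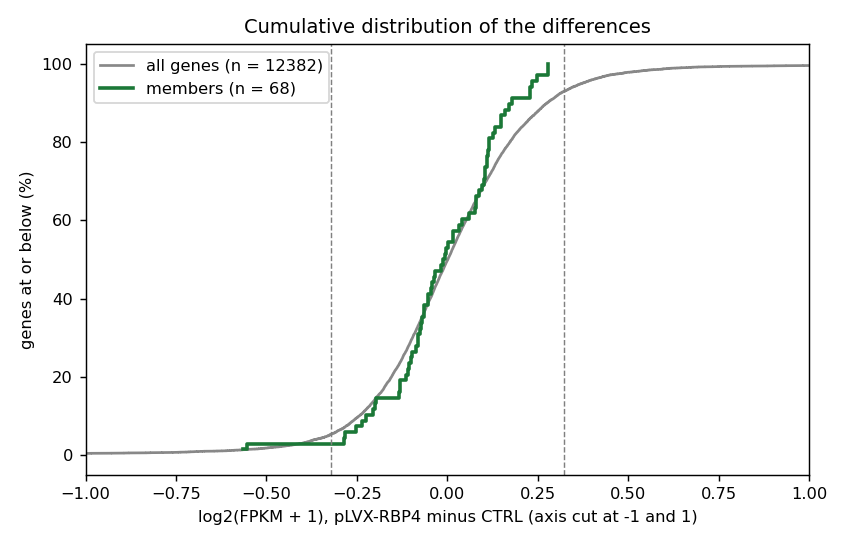
Cumulative share of genes (y axis, percent) at or below each difference in log2(FPKM + 1) between the pLVX-RBP4 and CTRL groups (x axis), for the 68 members (green) and all 12382 genes (grey); dashed lines mark a difference of 0.32 in either direction. The curves run close together in the middle, and the green curve ends before the upper dashed line and has 2 members below the lower one.

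The labelled cell type was checked against marker genes. By symbol, 7 of 14 granulosa markers were found, all at 1 FPKM or more, among them *CYP11A1* with 672.9 and 669.4 FPKM, *NR5A1* with 31.1 and 28.1 FPKM and *FSHR* with 9.99 and 8.47 FPKM in CTRL and pLVX-*RBP4* cells. Stromal and smooth muscle genes were also high, with a sum over 6 found genes of 2698 and 2873 FPKM. Most of that sum was *TAGLN*, with 1809 and 1891 FPKM, and *ACTA2*, with 644.1 and 687.8 FPKM, both genes of contractile cells. The matrix gene *DCN* had 168.6 and 210.1 FPKM, a difference of 0.32, and the smooth muscle myosin *MYH11* had 2.17 and 1.54 FPKM, a difference of -0.32. The sum over 4 immune genes was 47.6 and 54.1 FPKM, most of it *CD14* with 42.9 and 48.9 FPKM, whereas the leukocyte gene *PTPRC* had 0.229 and 0.166 FPKM and *CSF1R* had 0.414 and 0.428 FPKM. The 2 endothelial genes found summed to 19.9 and 19.0 FPKM. Of the genes listed for theca, *LHCGR* had 0.209 and 0.0937 FPKM and *INSL3* had 0 and 0.292 FPKM. *LHCGR* codes for the luteinizing hormone receptor, which the paper also places in GCs. The epithelial gene *EPCAM* had 0.325 and 0.199 FPKM, and the oocyte gene *GDF9* had 3.36 and 3.51 FPKM. In such bulk samples, fewer cells of a type and less RNA per cell cannot be told apart, and the part of other cells in the differences below was not tested.

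*RAB3B* (ENSSSCG00000021036) stood at 15.2 FPKM in CTRL cells and at 10.0 FPKM in pLVX-*RBP4* cells. It belongs to the RAB3 proteins, which sit on secretory vesicles and act in regulated release. The difference was -0.55, or a CTRL value 1.51 times the other when the plain ratio was taken. Ordered by difference, *RAB3B* ranked 186th from the bottom of the 12382 genes. Among the 4692 genes with a mean between 5 and 20 FPKM, 1.30% lay at or below it. Across the scalings and pseudocounts its difference ranged from -0.60 to -0.48.

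The study measured *RAB3B* by RT-qPCR as well, and its primers are shown because they define the stretch of transcript that was amplified there. Both are written 5′ to 3′. The forward primer has 19 bases, of which 11 are G or C, and the reverse primer has 20 bases, of which 10 are G or C. The paper lists *RAB3B* among its 10 most downregulated genes and reports that RT-qPCR also found it lower. That list was ordered by fold change among genes that passed limits on the Cuffdiff q-value and on fold change. The plain ratio of 1.51 found here is untested and falls short of the larger fold limit that the paper states. Together with *KIT*, the gene also stands under the enriched term exocytosis in the paper. The RT-qPCR values were not analysed here.
*RAB3B* forward: ccttcctcttccgctatgc
*RAB3B* reverse: accttaaagtcgatgcccac

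The other RAB3 genes found were far lower than *RAB3B*. *RAB3A*, the RAB3 protein of synaptic vesicles, had 3.51 FPKM in CTRL cells and 3.65 FPKM in pLVX-*RBP4* cells. *RAB3D*, known from secretory granules of exocrine cells, had 0.287 and 0.0386 FPKM, below the limit of 1 FPKM, so its ratio rests on very low values. *RAB3C* was not found by name. Of the summed level of the 3 RAB3 genes found, *RAB3B* made up 79.9% in CTRL cells and 73.1% in pLVX-*RBP4* cells. The sum of the 3 genes was 19.0 and 13.7 FPKM, a ratio of 0.722.

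Regulators named for RAB3 did not share the size of this difference. *RAB3GAP1* and *RAB3GAP2*, the subunits of the complex that controls RAB3 and RAB18, had 24.1 and 37.4 FPKM in the CTRL group. In the pLVX-*RBP4* group they had 22.9 and 35.7 FPKM, with differences of -0.069 and -0.065. *RAB3IP* and *RAB3IL1*, exchange factors that load RAB8 with GTP, had differences of 0.16 and -0.064 at 2.02 and 5.39 FPKM in the CTRL group. Of the 6 RAB regulators and effectors at 1 FPKM or more, 2 were higher and 4 lower, with a median of -0.065, while 5 of the 6 were higher once both groups had a common sum.

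Secretory RABs other than RAB3 were mostly level or higher. *RAB13*, which acts at tight junctions and in traffic to the cell surface, was the most abundant gene of this class, with 178.7 FPKM in CTRL cells and 210.1 FPKM in pLVX-*RBP4* cells, a difference of 0.23. *RAB10*, needed for basolateral and glucose transporter traffic, had 111.0 and 121.4 FPKM (0.13). *RAB8A* and *RAB8B*, which drive post-Golgi carriers to the plasma membrane, had 27.7 and 11.1 FPKM in CTRL cells, with differences of 0.033 and -0.0074. *RAB27A*, which docks lysosome-related organelles and exosome-bearing bodies, was nearly equal in the groups, with 4.27 and 4.23 FPKM. *RAB37*, a RAB of secretory granules, was low, with 1.61 and 1.28 FPKM (-0.20).

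Summed over the 9 secretory RABs, the level was 353.3 FPKM in CTRL cells and 390.1 FPKM in pLVX-*RBP4* cells, a ratio of 1.10. *RAB13* supplied 50.6% of the first sum and 53.9% of the second. Without *RAB3B* the sums were 338.2 and 380.1 FPKM, so the gene with the largest difference carried little of the class. Of the 8 secretory RABs at 1 FPKM or more, 4 were higher and 4 lower, with 3 higher under upper quartile scaling and 6 when a common sum was set.

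The RABs of the endoplasmic reticulum (ER) and Golgi held the most abundant member. *RAB1A*, required for traffic from the ER to the Golgi, had 246.4 FPKM in CTRL cells and 299.1 FPKM in pLVX-*RBP4* cells. Its difference of 0.28 was the largest upward one of all 68 members, and it ranked 1220th from the top of the 12382 genes. Among the 1092 genes at 100 FPKM or more, 67.1% were higher, and 157 lay at or above *RAB1A*. *RAB2A*, which acts between the ER and the Golgi, was close behind, with 79.9 and 97.1 FPKM (0.28), and its paralog *RAB2B* had 18.3 and 19.8 FPKM (0.10). *RAB30*, a Golgi RAB, had 4.17 and 5.14 FPKM (0.25).

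Not all RABs of this compartment went the same way. *RAB6A*, which returns carriers through the Golgi and also brings vesicles to the cell surface, had 88.3 FPKM in CTRL cells and 82.1 FPKM in pLVX-*RBP4* cells (-0.10). *RAB34* and *RAB33B* differed by 0.014 and 0.0028. In all, 6 of 7 genes of the class were higher, with a median of 0.10, and 4 of 7 after upper quartile scaling. Among all genes these shares were 50.2% as deposited and 43.4% after upper quartile scaling. The summed level of the 9 named genes was 505.7 and 572.8 FPKM, a ratio of 1.13, and *RAB1A* supplied 48.7% and 52.2% of it.

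**Figure D2:**
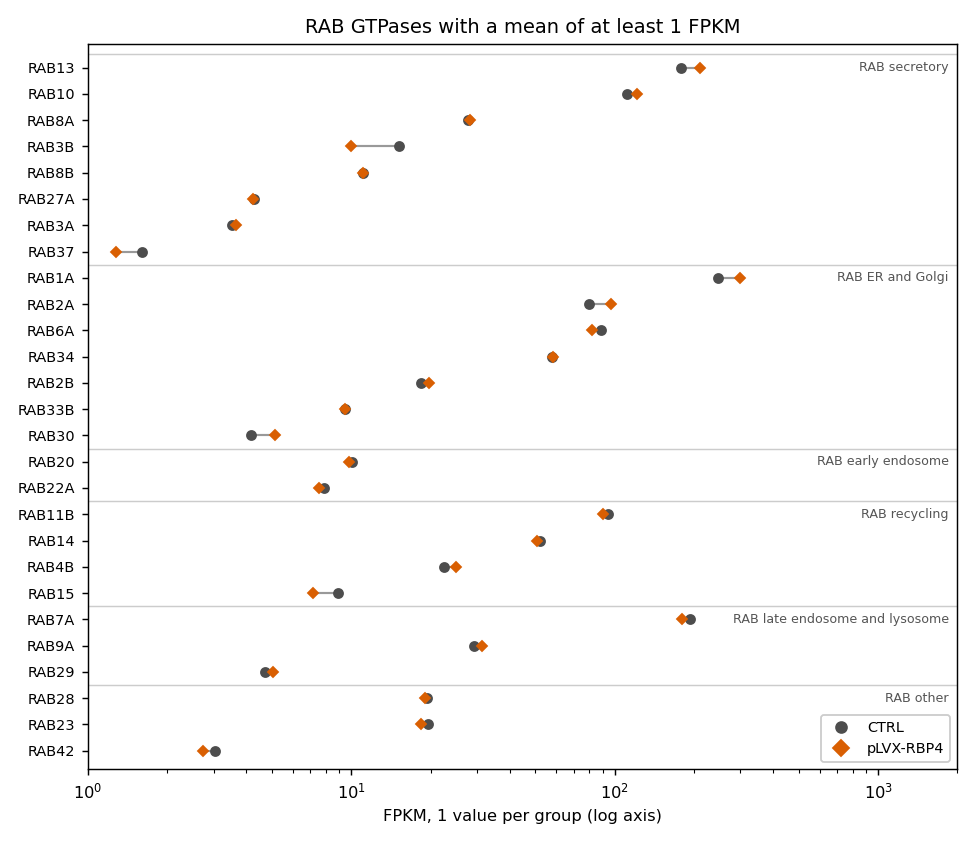
FPKM on a log axis of the 27 RAB GTPases with a mean of at least 1 FPKM, ordered by compartment and level, with the CTRL value as a grey circle and the pLVX-RBP4 value as an orange diamond; each is 1 value per group without an error. The widest gap belongs to RAB3B, from 15.2 to 10.0 FPKM, and RAB1A is the most abundant.

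The RABs found for endosomes and lysosomes mostly differed little. *RAB7A*, the RAB of late endosomes and lysosomes, was the third most abundant member, with 193.5 FPKM in CTRL cells and 180.4 FPKM in pLVX-*RBP4* cells (-0.10), while *RAB9A*, which returns cargo from late endosomes to the Golgi, had 29.2 and 31.5 FPKM (0.10). *RAB29*, also linked to the Golgi and lysosomes, had 4.71 and 5.03 FPKM. The early endosomal *RAB20* and *RAB22A* had differences of -0.035 and -0.052 at 10.0 and 7.88 FPKM in the CTRL group. *RAB5A*, *RAB5B*, *RAB5C*, *RAB4A* and *RAB11A* were not found by name, so early and recycling endosomes are described in part.

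Among the recycling RABs, *RAB11B*, *RAB14* and *RAB4B* return receptors to the surface by different routes. *RAB11B* had 93.9 and 90.4 FPKM, *RAB14* had 52.3 and 50.7 FPKM, and *RAB4B* had 22.4 and 24.96 FPKM in CTRL and pLVX-*RBP4* cells. *RAB15* was the exception in size, with 8.91 and 7.13 FPKM and a difference of -0.29, the third lowest among the 68 members. It lay just inside the limit of 0.32. The remaining RABs, *RAB28*, *RAB23* and *RAB42*, had differences of -0.018, -0.083 and -0.11, and *RAB23* and *RAB28* are known from cilia.

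The 4 members at 100 FPKM or more were *RAB1A*, *RAB13*, *RAB7A* and *RAB10*. They held 35.1% of the summed level of all 88 members in CTRL cells and 37.5% in pLVX-*RBP4* cells. The sum over all members was 2080 FPKM in CTRL cells and 2164 FPKM in pLVX-*RBP4* cells, a ratio of 1.04. Over all genes of the table that ratio was 0.946, and the single most abundant gene took 35.4% of the total in CTRL cells and 25.8% in pLVX-*RBP4* cells. The total thus leans on a single gene whose share differed between the groups, and so does rescaling to a common sum. The ratios of 1.04 and 0.946 therefore do not show how the members stood to the other genes.

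The exocyst was expressed at moderate levels, and its subunits did not move as a block. *EXOC2*, the subunit that binds RAL GTPases, had 40.9 FPKM in CTRL cells and 35.5 FPKM in pLVX-*RBP4* cells (-0.20). *EXOC6B*, whose family binds RAB proteins on vesicles, had 17.3 and 14.5 FPKM (-0.24), the lowest difference of the complex. Its paralog *EXOC6* was below the limit, with 0.474 and 0.822 FPKM, so *EXOC6B* held most of the summed level of this pair, 17.7 and 15.3 FPKM.

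Other subunits lay on both sides of 0. *EXOC7*, which anchors the complex at the plasma membrane, had 32.8 and 30.3 FPKM (-0.11), and *EXOC8*, another partner of RAL GTPases, had 5.78 and 5.43 FPKM (-0.076). Higher values in the pLVX-*RBP4* group were seen for *EXOC5*, with 23.1 and 25.4 FPKM (0.13), and *EXOC1*, with 21.9 and 23.8 FPKM (0.11). *EXOC3L1*, an exocyst relative, was below the limit, with 0.803 and 0.704 FPKM. Thus 2 of 6 exocyst genes were higher and 4 lower, also under each scaling, and their median was -0.093. The subunits *EXOC3* and *EXOC4* were not found by name.

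Syntaxins were the class with the strongest single difference. *STX1A* (ENSSSCG00000007772), the syntaxin of synaptic and endocrine exocytosis, had 5.04 FPKM in CTRL cells and 3.09 FPKM in pLVX-*RBP4* cells. The difference was -0.56, which ranked 175th from the bottom of 12382 genes. Its plain log2 ratio was -0.71, a CTRL value 1.63 times the other, and it was larger in size than that of *RAB3B*. *STX1A* was the weaker gene of the 2, and among the 3204 genes with a mean between 1 and 5 FPKM, 9.96% were lower past the limit of 0.32 and 3.03% lay at or below *STX1A*.

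Neural and endocrine genes were checked beside *RAB3B* and *STX1A*, because both proteins are best known from such cells. Of 5 genes listed, 4 were found, with a sum of 43.1 FPKM in CTRL cells and 42.6 FPKM in pLVX-*RBP4* cells. *CHGA*, a granule protein of endocrine cells, made up nearly all of it, with 42.1 and 41.5 FPKM. *SYP*, a synaptic vesicle protein, had 0.680 and 0.689 FPKM, and *SNAP25*, the usual partner of *STX1A* and itself a member, had 0.299 and 0.357 FPKM. *SCG2*, a secretogranin of such granules, was at 0.0190 and 0.0810 FPKM.

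The other syntaxins of the plasma membrane had the opposite sign or a small difference. *STX2* and *STX3*, which act in epithelial and granule secretion, had 10.8 and 11.0 FPKM in CTRL cells and 12.8 and 13.0 FPKM in pLVX-*RBP4* cells, with differences of 0.23 and 0.23. *STX4*, the general plasma membrane syntaxin, had 25.7 and 24.3 FPKM (-0.082).

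Syntaxins of the Golgi and endosomes were the more abundant ones. *STX6*, which acts between the trans-Golgi and endosomes, had 60.1 FPKM in CTRL cells and 54.7 FPKM in pLVX-*RBP4* cells (-0.13). *STX7*, a late endosomal syntaxin, had 41.4 and 44.9 FPKM (0.11), and *STX10*, a relative of *STX6*, had 15.6 and 17.8 FPKM (0.18). *STX5* (ER to Golgi), *STX11* (granule release in immune cells), *STX12* (recycling endosomes), *STX16* (trans-Golgi) and *STX17* (autophagosomes) had differences between 0.075 and 0.11. In all, 9 of 13 syntaxins were higher, as deposited and under each scaling, and their median was 0.10. Among all genes 50.2% were higher as deposited, 43.4% under upper quartile scaling and 64.9% with a common sum.

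The SNARE partners found for the syntaxins were few. *VAMP4* of the trans-Golgi and *VAMP7* of lysosomes had 19.99 and 18.8 FPKM in CTRL cells, with differences of 0.17 and 0.087. *SNAP29*, which pairs with syntaxins inside the cell, had 17.8 and 19.1 FPKM (0.095), and *SNAP47* had 3.34 and 3.81 FPKM (0.15). *VAMP2*, *VAMP3*, *VAMP8* and *SNAP23*, the usual partners at the plasma membrane, were not found by name, so the vesicle side of exocytosis is described here in part.

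STXBP proteins hold syntaxins ready for fusion or keep them back. *STXBP2*, which pairs with *STX3* and *STX11*, was the most abundant, with 59.6 FPKM in CTRL cells and 62.2 FPKM in pLVX-*RBP4* cells (0.059). *STXBP3*, which pairs with *STX4*, had 16.8 and 16.3 FPKM (-0.044). *STXBP6*, an inhibitory SNARE-binding protein, had 10.6 and 9.58 FPKM (-0.13), and *STXBP5*, which also holds back fusion, had 1.35 and 1.34 FPKM. With 1 of 5 higher the class had a median of -0.044, but 3 of 5 were higher after rescaling to a common sum.

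**Figure D3:**
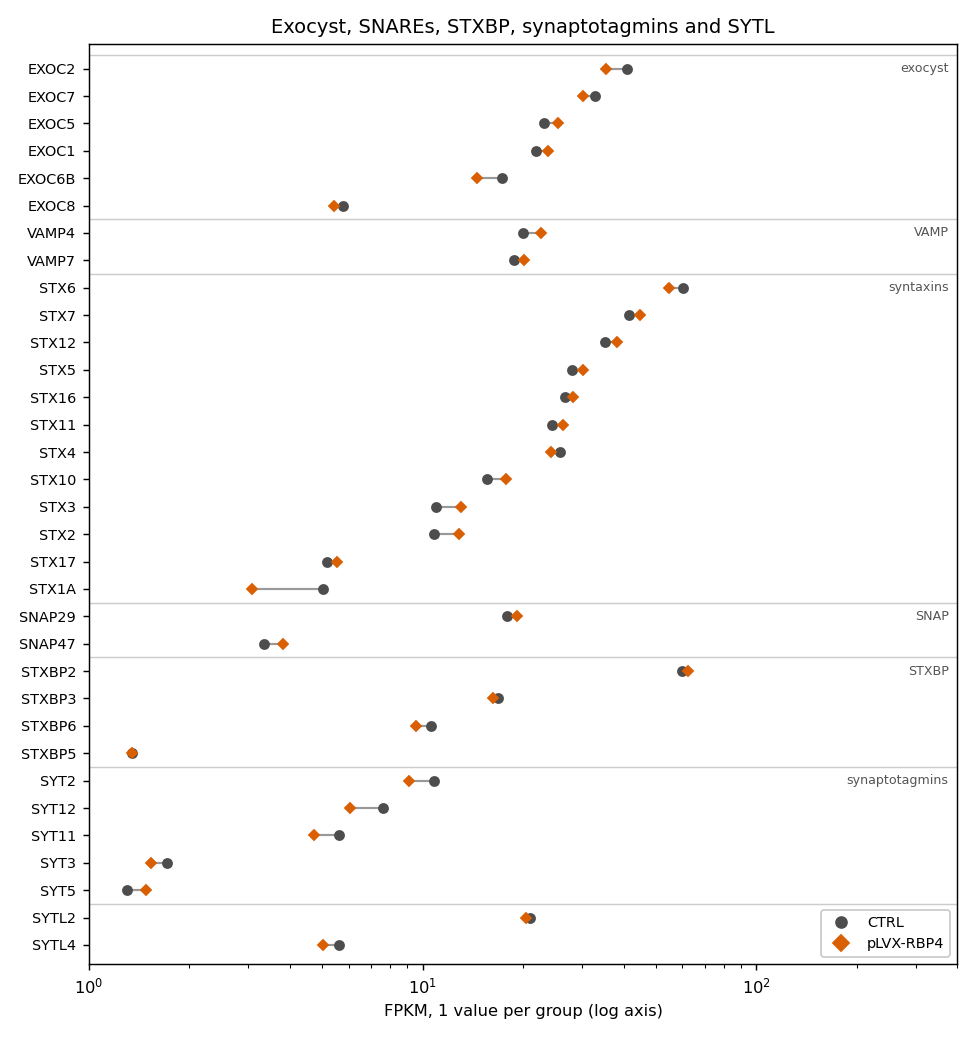
FPKM on a log axis of 33 of the 35 exocyst, VAMP, syntaxin, SNAP, STXBP, synaptotagmin and SYTL genes with a mean of at least 1 FPKM, with the CTRL value as a grey circle and the pLVX-RBP4 value as an orange diamond; each is 1 value per group without an error. STX1A has the widest gap, from 5.04 to 3.09 FPKM, and 4 of the 5 synaptotagmins are lower in the pLVX-RBP4 group.

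Synaptotagmins, many of which sense calcium at the moment of fusion, were weakly expressed, and 7 of the 12 named genes were below the limit. *SYT2*, a fast calcium sensor of synapses, was highest, with 10.8 FPKM in CTRL cells and 9.13 FPKM in pLVX-*RBP4* cells (-0.22). *SYT12* had 7.61 and 6.08 FPKM (-0.28), and *SYT11* had 5.62 and 4.74 FPKM (-0.21), and neither is thought to sense calcium in the usual way. *SYT3* had 1.72 and 1.54 FPKM, and *SYT5* had 1.30 and 1.48 FPKM. With 1 of 5 higher, as deposited and under each scaling, the median was -0.21, the lowest of the classes. It rests on 5 genes, and with the 7 weaker genes added the median was -0.026.

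The synaptotagmin-like proteins (SYTL) bind RAB27 and link its vesicles to the membrane. *SYTL2* had 20.9 FPKM in CTRL cells and 20.4 FPKM in pLVX-*RBP4* cells, and *SYTL4* had 5.61 and 5.03 FPKM (-0.13). The other 3 genes of the family, *SYTL1*, *SYTL3* and *SYTL5*, were below 1 FPKM in both groups.

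The classes can be set side by side by their medians. ER and Golgi RABs (0.10) and syntaxins (0.10) had the highest medians among classes with at least 5 genes, and synaptotagmins (-0.21) and exocyst genes (-0.093) the lowest, against 0.0014 for all genes. These 4 medians kept their sign under each scaling. Each class or list count stands against a share of all genes that also moved with the scaling. Of all genes, 50.2% were higher as deposited, 43.4% under upper quartile scaling and 64.9% with a common sum.

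**Figure D4:**
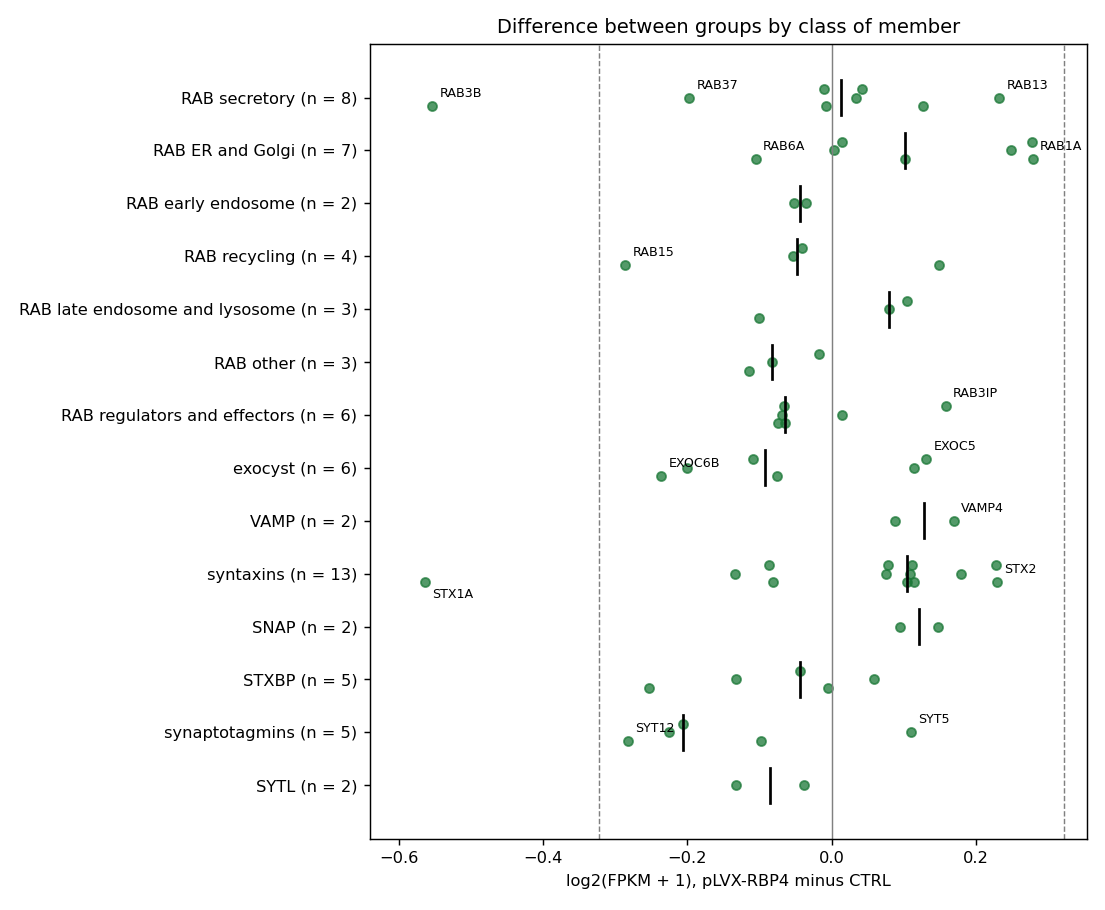
Difference in log2(FPKM + 1) between the pLVX-RBP4 and CTRL groups (x axis) for the 68 members by class (y axis, with the number of genes); each point is a gene, black bars are class medians and dashed lines mark a difference of 0.32 in either direction. RAB3B and STX1A lie apart at -0.55 and -0.56, and the next lowest member, RAB15, is at -0.29.

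The 20 members below 1 FPKM on average had very low values, the highest single one being 1.05 FPKM (*SYT16* in the pLVX-*RBP4* group). Of these, 12 had a higher and 8 a lower value with *RBP4*. *SYT14* was the 1 member listed at 0 in a group, with 0.0311 FPKM in the CTRL group. *SYTL1* had 0.181 and 0.0355 FPKM and *SYT1*, the main calcium sensor of synapses, 0.0364 and 0.0167 FPKM.

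The genes around the members were taken from 5 lists of RAB and SNARE cofactors. RAB exchange factors load GTP, and of 28 such genes 6 were higher and 22 lower, with a median of -0.098, against 50.2% higher among all genes. With a common sum 10 were higher, and under upper quartile scaling 3. *MADD*, the exchange factor for RAB3 and RAB27, had 17.8 FPKM in CTRL cells and 15.1 FPKM in pLVX-*RBP4* cells, a difference of -0.22 that was the lowest of its list. No exchange factor passed the limit of 0.32 in either direction.

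The TBC1D family and its relatives switch RABs off. Of 30 such genes 12 were higher and 18 lower, with a median of -0.033, and 20 were higher after rescaling to a common sum. Of all genes, 50.2% were higher as deposited and 64.9% with a common sum. *TBC1D12*, a partner of RAB11 on recycling endosomes, had 5.21 and 2.83 FPKM and a difference of -0.70, the lowest of all 5 lists and lower than any member. *TBC1D15*, which acts on RAB7, had 16.05 and 19.6 FPKM (0.27), the highest of its list.

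RABs need lipid anchors and carriers. *GDI2*, which keeps inactive RABs soluble, had 300.1 FPKM in CTRL cells, with a difference of -0.071. *RABAC1*, a membrane protein that receives prenylated RABs, had 587.6 and 652.1 FPKM (0.15), and *RABGGTA*, a subunit of the enzyme that attaches the lipid, had 10.7 and 9.54 FPKM (-0.15). In this list 2 of 5 were higher, or 4 after rescaling to a common sum.

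SNARE cofactors and priming factors were lower in 10 of 13 cases and higher in 3, or in 4 with a common sum, with a median of -0.092. Of all genes, 49.8% were lower as deposited, and 64.9% were higher with a common sum. *NSF* and *NAPA*, which take SNARE complexes apart after fusion, had 3.47 and 67.5 FPKM in CTRL cells and 2.94 and 63.2 FPKM in pLVX-*RBP4* cells. *UNC13B* and *UNC13D*, which prime vesicles, had differences of -0.13 and -0.094. *SCFD1*, the STXBP relative that guides *STX5* between ER and Golgi, went the other way, with 18.0 and 23.6 FPKM (0.37), past the limit of 0.32.

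The remaining SNAREs lie outside the naming rule and act mostly between ER, Golgi and endosomes. They were higher in 7 of 7 cases, as deposited and under each scaling, and their median was 0.21. The share of all genes that were higher was 50.2% as deposited and 64.9% with a common sum. *VTI1B* had 49.6 FPKM in CTRL cells and 61.4 FPKM in pLVX-*RBP4* cells (0.30), and *YKT6* had 133.9 and 155.5 FPKM (0.21). *BNIP1* had 14.3 and 17.1 FPKM (0.24). The smallest difference in the list was 0.11, for *GOSR1*, and 0 of the 7 passed the limit of 0.32.

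**Figure D5:**
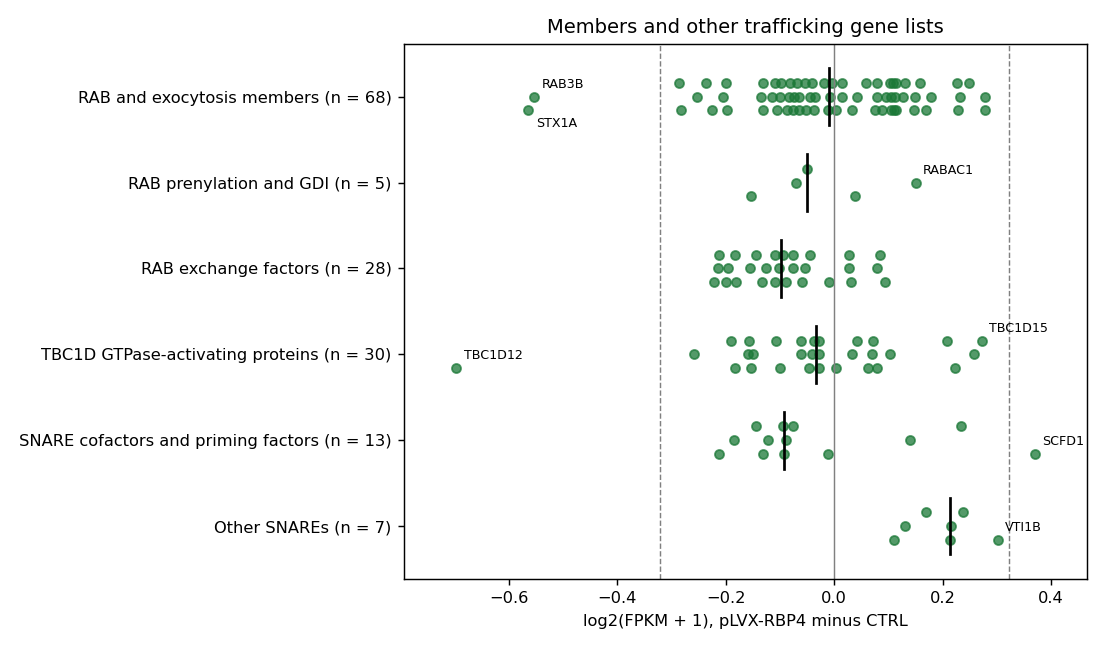
Difference in log2(FPKM + 1) between the pLVX-RBP4 and CTRL groups (x axis) for the 68 members and for 5 lists of other trafficking genes (y axis, with the number of genes at 1 FPKM or more); each point is a gene, black bars are medians and dashed lines mark a difference of 0.32 in either direction. The 7 other SNAREs all lie above 0, and TBC1D12 at -0.70 lies below RAB3B and STX1A.

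Across all 5 lists, 96 of 132 genes were found and 83 were at 1 FPKM or more, of which 30 were higher and 53 lower, with a median of -0.060. Among all genes 50.2% were higher, and the median was 0.0014. With a common sum, 20 in place of 12 TBC1D genes and 10 in place of 6 exchange factors were higher, and 64.9% of all genes. The split of the lists therefore depends on the scaling. The limit of 0.32 was passed by 1 upward (*SCFD1*) and 1 downward (*TBC1D12*), a smaller share than the 7.11% and 5.31% of all genes. As these genes are not replicates and no library values were used, the counts describe the sequenced libraries.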

How the data were processed

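According to the methods, RNA libraries of both groups were made with a NEBNext Ultra kit and sequenced as paired ends, reads were filtered and aligned to Sscrofa10.2 with TopHat2, and Cuffdiff was used for the comparison. The values deposited by the authors are FPKM, 1 per gene and group; 0 columns of sample values were left unused. Versions and the annotation release are not given in the sources used here. Read numbers per library are given in the study's supplement and were not used here; they cannot be computed from FPKM.

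Symbols came from the study's supplementary tables (765 genes) or from Ensembl names (9992 genes), and 18 genes had differing symbols in these sources, none of them a member. RefSeq (Sscrofa11.1) lists 135 protein-coding symbols that the rule takes, of which 88 were found and 47 were not. From the FPKM values, log2(FPKM + 1) was computed, and genes with a mean of at least 1 FPKM were kept for counts. With 1 value per group, the planned linear model was not fitted, and no p-value was computed. Alternatives were pseudocounts of 0.1 and 0.01, other filters, scaling to a common median, upper quartile or sum, a limit of 1.5-fold, the mean for the median, and leaving out RAB effectors; the plain ratio, also with a limit of 1.5-fold, was added after seeing the data.

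The members and lists were chosen with earlier results of these data known. Named genes were *RAB3B*, the RAB3 and RAB27 genes, the 2 most abundant genes of each class, the 10 largest differences in each direction and all exocyst genes; other members and the genes of the 5 further lists were named to complete their class, after their values were seen. Some genes of the classes and lists are counted but not reported by name here. Python 3.11.15, numpy 2.4.6, pandas 2.3.3 and matplotlib 3.10.9 were used.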

Additional observations from a re-analysis of the deposited data

How the results depend on the processing

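No paired analysis was possible because the table holds 1 value per group, and for the same reason no replicate could be left out. A change of 0.1 or more on the log2 scale, or a factor over 1.5 in a count, was called a move. Of 174 alternative values for counts and medians of members, classes and lists and for *RAB3B*, 167 were not moved. Most of these medians are nearer to 0 than 0.1, so they can change sign without a move. With a common sum the median of the members went from -0.0091 to 0.055, and that of the recycling RABs from -0.048 to 0.031. A pseudocount cannot change the sign of a difference, so it could not alter the counts of higher and lower genes. The number of values not moved is thus no measure of how firm a direction is. Rescaling to a common sum gave 23 lower members in place of 36 and 2 members higher past the limit of 0.32 (*RAB1A* and *RAB2A*) in place of 0, where 11.9% of all genes passed. The 2 members lower past the limit of 0.32 became 4 with a pseudocount of 0.01 and 4 with the plain ratio (*RAB37* and *SYT12* joined), where 8.26% and 8.12% of all genes passed, 1 with a mean of at least 5 FPKM, which removes *STX1A*, and 0 at a limit of 1.5-fold on the FPKM + 1 scale, though 2 passed 1.5-fold by the plain ratio. Without a filter the median of the synaptotagmins was -0.026 in place of -0.21. For single genes and class counts, 442 of 463 values were not moved, and *STX1A* reached -0.71 without a pseudocount. Rescaling shifted the median of all genes from 0.0014 to 0.072, and upper quartile scaling to -0.033. Low FPKM values cannot be given an interval here.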
